A study of Mus musculus with 12 samples.

Results

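The livers of untreated HESKOL mice were compared with those of untreated wild-type mice, on 6 of the 12 arrays of the series, 3 for each genotype. The members were chosen by sample title, and every gene that could be measured was considered. All mice were male, of the C57BL/6 strain and 8 to 10 weeks old, and all had lost their adrenal glands by surgery, wild-type controls included, so both groups lacked their own glucocorticoids. The labels call HESKOL a knockout and the study is titled after Hes1, but they give neither the altered allele nor the cells or time in which it acts, which limits what the HESKOL livers can stand for. The other 6 arrays held livers of both genotypes taken 6 hours after 1 mg/kg of dexamethasone, a synthetic glucocorticoid, and they served here as a second look at the same genotype difference. The design states 3 mice per group, so each array is a separate animal. The question was which liver genes differ with the HESKOL genotype before any glucocorticoid is given.

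Hes1 is a basic helix-loop-helix protein that represses transcription. It is induced by Notch signaling, it recruits Groucho-type corepressors of the Tle family, and it binds N boxes and related E boxes, including some in its own promoter. In liver it is known for its part in bile duct formation and in lipid metabolism. Many liver genes also differ between males and females, because growth hormone is secreted in pulses in males and more continuously in females, and the transcription factors STAT5b, BCL6 and CUX2 carry that signal. This second background is given because several of the genes described here belong to it.

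The Hes1 probe is shown first, since it checks the label of the mice. It has 60 bases and is printed as deposited in the array files, 5′ to 3′, on chromosome 16 between 29738743 and 29739038 of the mm7 build. The probe's 60 bases span 296 bases of the genome, so it crosses a gap of 236 bases and lies on a junction of exons.

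Hes1 probe: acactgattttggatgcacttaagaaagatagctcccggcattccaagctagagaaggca

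Hes1 signal was lower in every HESKOL liver than in every wild-type liver, and it was not lost. Levels are given throughout as the log2 signal minus the log2 75th percentile of the same array, so that 0 is a bright gene of its array, and a difference of 1 is a doubling. The wild-type livers stood at -1.49, -1.22 and -1.90, and the HESKOL livers at -2.46, -2.40 and -3.09. The groups did not overlap, and all 6 arrays were well above background. The difference was -1.12 (SE 0.43), 2.17-fold lower, with an unadjusted p of 0.0248 in limma, an adjusted p of 0.9999 over all genes, and p = 0.1 in an exact two-sided permutation test, the smallest value that 3 against 3 arrays can give. It ran from -1.30 to -0.90 as each of the 12 arrays was left out. Which exons were altered in HESKOL is not given, so the source of the remaining signal was not tested.

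No relative of Hes1 and no gene of the Notch pathway passed the test, and neither did any other of the 18698 genes tested. Among all genes, 1.58% had an unadjusted p under 0.05. Of 18 tested genes of the Hes, Hey, Id and Tle families with their close partners, 0 passed the threshold of an adjusted p under 0.05 and Hes1 alone had an unadjusted p under 0.05. Their differences ran from -1.12 to 0.96, and 9 means were higher and 9 lower in HESKOL liver. In 3 of the 18 the HESKOL livers lay above all wild-type livers, as they did in 4.15% of all genes, a share that moved with the scaling. Heyl, a Notch target of vessel walls, stood at -2.12, -2.54 and -2.48 in wild-type and -2.05, -1.61 and -1.49 in HESKOL liver. Hey1 stood at -1.91, -1.66 and -1.67 against -1.48, -1.01 and -1.44. Id4, which blocks other helix-loop-helix factors, stood at -2.08, -2.03 and -1.82 against -1.78, -1.26 and -1.64. None of these 3 had an unadjusted p under 0.05 (0.157 for Heyl, 0.301 for Hey1 and 0.0708 for Id4, limma). Hes6 (-0.45, SE 0.43) and Tle1 (-0.45, SE 0.37) had lower means in HESKOL liver, with overlapping groups. Hes3, Hes7, Hey2 and Helt have probes but were not above background on all 3 arrays of any group. Of 31 tested receptors, ligands and processing enzymes of the Notch pathway, 0 had an unadjusted p under 0.05, the differences ran from -0.13 to 0.44, and the median was 0.063 where that of all 18698 tested genes was 0.043. The receptor genes Notch1 (0.34, SE 0.35) and Notch3 (0.32, SE 0.31) and the glycosyltransferase gene Mfng (0.21, SE 0.19) had overlapping groups.

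**Figure D1:**
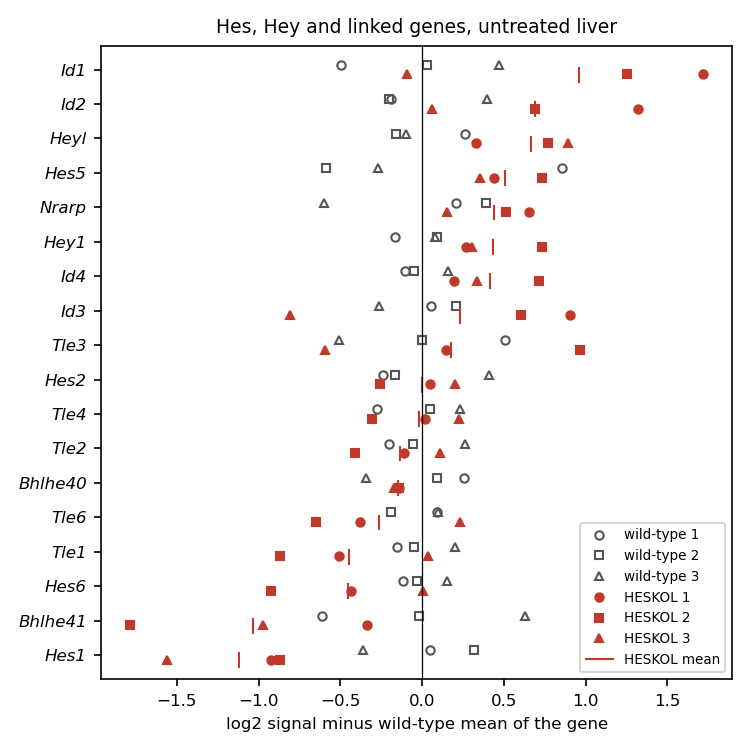
Log2 signal of the 18 tested genes of the Hes and Hey list in the 6 untreated livers, as the distance from each gene's wild-type mean (x axis, log2); open grey symbols are wild-type mice, filled red symbols HESKOL mice, and the red bar is the HESKOL mean. Hes1, at the bottom, has its 3 HESKOL livers at -2.46, -2.40 and -3.09 on the scale of the text, below all wild-type livers.

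Genes near Hes1 on the chromosome were examined because a targeted allele carries its neighbourhood with it. Within 10 Mb to either side of the Hes1 probe 154 genes were tested, with a median difference of 0.022. Fam43a, which lies near Hes1, was the 1 gene among them with an unadjusted p under 0.05, at -0.72, -0.66 and -0.57 in wild-type and 0.11, 0.030 and -0.20 in HESKOL liver (0.63, SE 0.23, limma adjusted p = 0.9999). In 6 of the 154 genes the HESKOL livers lay above all wild-type livers and in 2 below, where 4.15% and 2.2% of all genes did.

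The untreated livers differed more within a genotype than between genotypes, and 2 arrays stood apart. The first principal component of the 6 arrays (52.1% of variance) put wild-type replicate 1 at -56.9 and HESKOL replicate 2 at -58.1, side by side, and the other 4 arrays between 5.38 and 62.5. The 12 tested neutrophil markers summed to a linear signal of 377, 17.7 and 16.2 in the wild-type livers and 10.6, 284 and 176 in the HESKOL livers. S100a9, a granulocyte calcium-binding protein, stood at 7.67, 3.45 and 3.69 against 2.96, 7.25 and 7.0. Mki67, a marker of dividing cells, stood at 1.92, -2.27 and -2.54 against -0.63, 1.75 and -0.56. Spp1, made by bile duct cells and macrophages, was at 6.14 and 6.54 in those same arrays and between 3.75 and 4.83 in the others. Hepatocyte markers lay the other way, with the median member at -0.23 and -0.35 relative to the 6-array mean in the 2 arrays and between 0.00066 and 0.40 in the rest. The 9 tested hepatocyte markers were bright in every liver, as the labelled tissue requires (Fgb between 8.74 and 9.40). Slides were also unevenly filled. Slide 1 held the 3 wild-type livers and HESKOL replicate 1, and slide 2 held HESKOL replicates 2 and 3 with 2 treated wild-type livers, each slide with 1 scan run. A value within slide 1 therefore rests on 1 HESKOL liver. In whole liver, fewer cells of a type and less RNA per cell cannot be told apart.

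**Figure D2:**
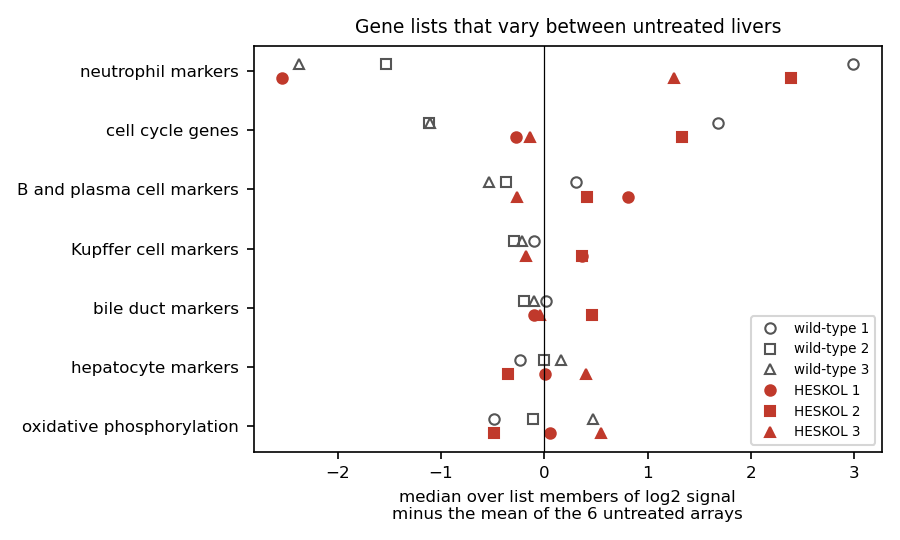
The 7 lists of genes in the 6 untreated livers; the x axis is the median over the tested members of a list of the log2 signal minus the mean of the 6 arrays, with open grey symbols for wild-type and filled red symbols for HESKOL mice. Neutrophil markers span the widest range, with wild-type replicate 1 at 2.99 and HESKOL replicate 1 at -2.54.

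No gene passed the threshold between the untreated genotypes. Of 18698 genes tested with limma, 0 had an adjusted p under 0.05 (0%), and the smallest adjusted p was 0.366. At an unadjusted p under 0.05 there were 296 genes (1.58%), 202 higher (1.08%) and 94 lower (0.503%) in HESKOL liver, fewer than the 935 that the threshold alone would give. The groups did not overlap in 1188 genes (6.36%), with the HESKOL livers above all wild-type livers in 776 (4.15%) and below them in 412 (2.2%). The share of higher genes moved with the scaling: of the genes at an unadjusted p under 0.05 it was 68.2% on the 75th percentile, 52.3% on array medians, 52.5% after quantile normalization, 49.8% after normexp correction and quantile normalization, and 31.5% on the deposited values as they stand. For genes without overlap the same shares were 65.3%, 39.8%, 49.5%, 49.2% and 16.4%. Each gene named below from the rank by p kept its sign under all these scalings.

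The genes are therefore described by rank, with their values, and none of them passed the test over all genes in untreated liver. Cux2, a homeobox repressor that is much more abundant in female than in male mouse liver, had the smallest p of all (2.9e-05, limma adjusted p = 0.366). The wild-type livers stood at -7.72, -7.00 and -7.70 and the HESKOL livers at -3.39, -3.70 and -4.34. The nearest HESKOL and wild-type livers were more than 2 log2 units apart. The difference was 3.66 (SE 0.54), and a second Cux2 probe gave 3.57. Cux2 was well above background on 1 of 3 wild-type arrays and on all 3 HESKOL arrays, so it entered the test through the HESKOL livers, and with the dim arrays set to the lowest signal well above background it was at least 7.35-fold higher. Its probe lies on chromosome 5 from 121094700 to 121094759 of mm7. Cdh15, which encodes the muscle-type adhesion protein M-cadherin, came next and in the other direction. Its levels were -3.48, -3.67 and -3.38 in wild-type and -4.64, -5.19 and -5.15 in HESKOL liver. That is a difference of -1.48 (SE 0.23, limma adjusted p = 0.366), on a probe on chromosome 8 from 121508826 to 121508885 of mm7.

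Upstream sequence of Cux2 and Cdh15, the genes of smallest p in each direction, and of 3 sex-biased liver genes with large differences is given so that the reader can see what lies before their start sites. The sequences are from RefSeq (GRCm38.p6), the 250 bases before the annotated start, 5′ to 3′ on the strand of the gene. Capitals mark every match, on either strand, to the N box CACNAG, to the class C site CACGNG, both known to be bound by Hes-type repressors, or to TTCNNNGAA, the core of STAT5 sites. CACGAG counts as both of the first 2.

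Cux2, chr5:122049852-122050101, minus strand: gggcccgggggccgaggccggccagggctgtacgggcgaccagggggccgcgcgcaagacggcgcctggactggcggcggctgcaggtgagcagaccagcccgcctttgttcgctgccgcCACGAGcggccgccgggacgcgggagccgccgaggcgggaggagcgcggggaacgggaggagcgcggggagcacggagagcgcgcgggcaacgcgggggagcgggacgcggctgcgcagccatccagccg

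Cdh15, chr8:122848124-122848373, plus strand: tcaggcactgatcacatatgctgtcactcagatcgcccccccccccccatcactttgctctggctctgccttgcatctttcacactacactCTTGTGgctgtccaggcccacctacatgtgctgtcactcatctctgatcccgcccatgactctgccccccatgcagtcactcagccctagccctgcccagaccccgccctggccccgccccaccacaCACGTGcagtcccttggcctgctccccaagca

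Cyp2b9, chr7:26173159-26173408, plus strand: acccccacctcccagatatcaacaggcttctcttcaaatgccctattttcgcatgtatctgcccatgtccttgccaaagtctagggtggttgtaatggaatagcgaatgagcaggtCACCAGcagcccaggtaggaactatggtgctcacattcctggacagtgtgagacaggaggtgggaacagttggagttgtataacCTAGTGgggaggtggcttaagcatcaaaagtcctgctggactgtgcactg

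Cyp2b13, chr7:26061245-26061494, plus strand: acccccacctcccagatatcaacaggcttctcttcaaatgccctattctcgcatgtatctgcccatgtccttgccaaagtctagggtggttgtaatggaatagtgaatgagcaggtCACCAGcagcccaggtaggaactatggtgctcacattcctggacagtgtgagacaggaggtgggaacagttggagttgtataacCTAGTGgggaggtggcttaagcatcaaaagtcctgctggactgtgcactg

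Hsd3b5, chr3:98645535-98645784, minus strand: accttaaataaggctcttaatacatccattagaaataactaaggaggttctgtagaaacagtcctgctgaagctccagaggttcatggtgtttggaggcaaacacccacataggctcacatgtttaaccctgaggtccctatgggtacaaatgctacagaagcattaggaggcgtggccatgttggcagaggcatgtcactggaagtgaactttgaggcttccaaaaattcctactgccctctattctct

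Of all 27025 genes with an upstream sequence, 1 start site each, 36.8% held an N box, 23.7% a class C site and 7.14% a STAT5-type match in this window. Among the 15 genes of smallest p with higher signal in HESKOL liver, 12 had a sequence, and 5, 6 and 0 of these held the 3 motifs. Among the 15 with lower signal 10 had a sequence, with 3, 4 and 3. Cyp2b9 and Cyp2b13 were identical at 248 of 250 positions, and Hsd3b5 held none of the 3 motifs in this window. A match is a string of letters and not evidence of binding.

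The 15 named genes with higher signal included several receptors and transporters. Lepr, the leptin receptor, stood at -2.98, -3.74 and -3.56 in wild-type and -2.23, -0.73 and -0.78 in HESKOL liver. The difference was 2.18 (SE 0.54, 4.54-fold), with a second probe at 2.08. Esr1, the estrogen receptor alpha, stood at 0.36, 0.071 and 0.84 against 1.31, 1.35 and 1.52. This was 0.97 (SE 0.23, 1.96-fold), with HESKOL values close together, and a second probe gave a smaller difference of 0.52. Nipal1, of a family of magnesium transporters, stood at -4.71, -2.06 and -5.28 against -0.44, -0.087 and -1.58 (3.32, SE 0.80). Here the 3 wild-type livers were themselves more than 3 log2 units apart. Cables1, which links cyclin-dependent kinases to tyrosine kinases, stood at -0.38, 0.016 and -0.20 against 1.49, 1.58 and 0.42 (1.35, SE 0.30). HESKOL replicate 3 was closest to the wild-type livers in Cables1.

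Metabolic enzymes and secreted or small binding proteins were also among the 15. Hao2, a peroxisomal hydroxyacid oxidase, was not well above background in any wild-type liver and was above it in all 3 HESKOL livers, at -3.31, -3.67 and -6.19. This is at least 5.58-fold higher, a bound taken from the lowest signal well above background on the wild-type arrays. S100g, a small calcium-binding protein, was likewise above background only in HESKOL liver, at -4.98, -5.92 and -6.48, at least 2.12-fold higher. Ugcg, the first enzyme of glucosylceramide synthesis, stood at 1.11, 1.26 and 1.37 against 2.34, 2.14 and 1.88 (0.87, SE 0.24), and its 2 other probes gave 0.86 and 1.05. Igfbp1, which carries insulin-like growth factors in blood and is made by liver, stood at 0.71, 2.89 and 4.21 against 4.98, 4.86 and 6.00 (2.68, SE 0.79). Wild-type replicate 1 was far below the other wild-type livers in Igfbp1, and without it the difference was 1.73. The other 5 of the 15 were Fam89a (1.42, SE 0.35), Cystm1 (0.81, SE 0.23), Lratd2 (0.78, SE 0.23), the secretory granule gene Scg3 (0.75, SE 0.22, above background on 1 of 3 wild-type arrays) and the olfactory receptor gene Olfr1095 (0.80, SE 0.23), the 15th being Cyp2b9, described with its family below.

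Of the 10 largest higher differences among genes above background on all 6 arrays, 4 are in that set. Slc22a26, an organic anion transporter, stood at -2.12, -3.57 and -3.36 against 0.60, 1.66 and -0.65 (3.55, SE 1.14). Sybu, which ties cargo to kinesin motors, stood at -3.03, -4.52 and -5.35 against -2.49, -0.82 and -2.90 (2.23, SE 0.68). The pancreatic protease genes Cela2a (2.13, SE 0.69) and Ctrc (2.03, SE 0.66) had HESKOL values of -0.71, -1.28 and -2.28 and of 1.01, 0.40 and -0.47. Of 8 tested pancreas acinar markers 2 had an unadjusted p under 0.05, Cela2a and Pnliprp1 (1.98, SE 0.77), while Cpb1 (-0.37) and Zg16 (-0.67) had lower means. At that p 1.08% of all genes were higher. Pnliprp1 was above background on 2 of 3 wild-type arrays, with or without treatment, so it entered the test through HESKOL livers. The defining acinar genes Cpa1, Pnlip and Prss2 were not above background on all 3 arrays of any group.

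The 15 named genes with lower signal included adhesion, uptake and metabolic genes. Lrp2, the endocytic receptor megalin, stood at -3.31, -3.44 and -3.29 in wild-type and -5.13, -5.21 and -4.89 in HESKOL liver (-1.73, SE 0.41). Both groups were narrow and lay well apart. Lad1, a basement membrane anchoring protein, stood at -1.63, -1.20 and -2.17 against -3.30, -3.30 and -3.66 (-1.75, SE 0.53). Tuft1, first known from tooth enamel, stood at 1.58, 1.33 and 0.89 against 0.20, 0.039 and 0.034 (-1.17, SE 0.27). Both genes had HESKOL livers close together. A place below every wild-type liver was a condition for every gene of this set, and the rank by p favoured narrow groups. Pfkfb3, which makes the activator of glycolysis fructose 2,6-bisphosphate, stood at 1.93, 2.05 and 1.94 against 0.19, 0.20 and 1.31 (-1.41, SE 0.42), with its other 2 probes at -1.95 and -1.16. Serpina12, the insulin-sensitizing secreted protein vaspin, stood at -2.87, -2.58 and -2.77 against -3.84, -4.50 and -4.59 (-1.57, SE 0.45). Cspg5 (-1.04, SE 0.24), a proteoglycan of nervous tissue, and Smg8 (-0.80, SE 0.20), of nonsense-mediated decay, also had narrow groups. The receptor genes Drd3 (-0.95, SE 0.21), Grm8 (-1.34, SE 0.38), Olfr318 (-1.43, SE 0.41) and Olfr608 (-0.76, SE 0.24) and the deubiquitinase gene Usp17la (-1.62, SE 0.44) completed the dim end of the set.

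Among the largest lower differences, Moxd1, a copper-dependent monooxygenase, stood at 1.01, 2.97 and 3.41 in wild-type and -1.29, -3.68 and -2.16 in HESKOL liver. This was -4.84 (SE 1.29, 28.6-fold), the largest difference of any tested gene in either direction. Serpina4-ps1, a serpin pseudogene, stood at 1.78, 2.75 and 1.50 against -0.76, -3.63 and -1.16 (-3.86, SE 1.23), and HESKOL replicate 2 was the lowest in both genes. Dct, dopachrome tautomerase, stood at 1.53, 1.46 and 3.40 against -1.22, -1.42 and 1.39 (-2.55, SE 0.94). Ces4a, a carboxylesterase, stood at -0.75, -0.37 and -1.10 against -3.45, -4.84 and -1.37 (-2.48, SE 0.90). In these 2 genes HESKOL replicate 3 was just below the lowest wild-type liver. Capn8, a calpain, had a difference of -1.66 (SE 0.56), and its second probe gave -2.70.

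**Figure D3:**
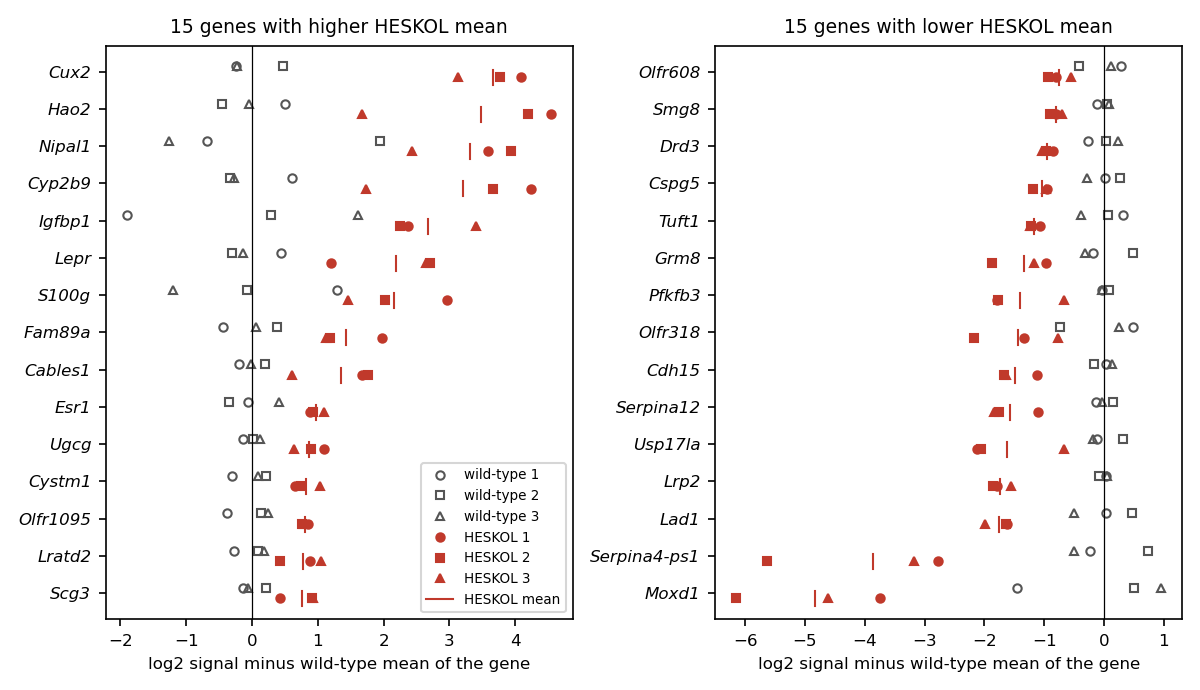
The 15 genes of smallest p with higher (left) and lower (right) mean signal in untreated HESKOL liver among genes whose groups do not overlap; the x axis is the log2 signal minus the wild-type mean of the gene, with open grey symbols for wild-type mice, filled red symbols for HESKOL mice and a red bar for the HESKOL mean. Moxd1 has the widest gap of means, at -4.84, and genes such as Lrp2 and Drd3 have narrow groups, which a rank by p favours.

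Some of the large differences lay in genes that differ between male and female mouse liver. The whole list of 33 tested growth hormone patterned genes had 16 higher and 17 lower means, with a median of -0.011. This list was split by the sex that expresses more, after values had been seen. All 11 tested genes of male-type liver had lower means in HESKOL liver (median -0.92, where all genes stood at 0.043), 2 with an unadjusted p under 0.05 and 2 with groups that did not overlap. Over all genes 0.503% were lower at that p and 2.2% lay below without overlap. Hsd3b5, a steroid-metabolizing enzyme of male liver, stood at 3.44, 4.53 and 4.49 against 2.43, -1.58 and 2.60 (-3.00, SE 0.98). Slco1a1, an uptake transporter for organic anions and bile acids, stood at 2.35, 3.37 and 3.12 against 1.94, 0.10 and 2.61 (-1.40, SE 0.61). HESKOL replicate 2 was the lowest liver in both genes. C6, of the terminal complement pathway, stood at 4.33, 4.40 and 4.12 against 2.94, 3.22 and 3.93 (-0.92, SE 0.43), and Cyp7b1, which hydroxylates oxysterols, at 5.51, 6.28 and 6.72 against 5.17, 4.10 and 5.84 (-1.13, SE 0.61). Hsd3b4, a close paralog of Hsd3b5 whose probe may share its signal, gave -2.82 (SE 0.98). Without HESKOL replicate 2 the median of the male list was -0.20, with 7 of 11 means lower, and within slide 1 it was -0.44 with 8 of 11 lower. Without wild-type replicate 3 it was -0.61 with 9 of 11 lower. With the median of a gene's probes in place of the brightest probe it was -0.53, with 11 of 11 lower. The 11 means were lower under each scaling tried.

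Genes of female-type liver had a median difference of 0.27, with 11 of 14 means higher in HESKOL liver, where 10902 of all 18698 genes had higher means. An unadjusted p under 0.05 was found for 4, all higher, where 1.08% of all genes were. Besides Cux2 these were 2 cytochromes and A1bg. Cux2 and A1bg entered the test only through HESKOL livers, so the filter itself favoured their being counted as higher. Cyp2b9, a steroid hydroxylase of female liver, stood at 1.74, 0.80 and 0.86 against 5.37, 4.80 and 2.87 (3.21, SE 0.83, 9.27-fold), and its second probe gave 3.05. Cyp2b13 stood at 0.59, 0.045 and -0.59 against 3.87, 3.33 and 1.06 (2.74, SE 0.95), with 4.89 on its second probe. Cyp2b10, the family member best known as a target of the receptor CAR, stood at -0.16, -0.41 and -1.17 against 1.69, 1.52 and -0.13 (1.61, SE 0.88). The 3 genes rank the HESKOL livers alike, with replicate 3 lowest, and their sequences are close enough that the probes may not be separate measurements. A1bg, a secreted protein of female liver, was above background in 0 of 3 wild-type and 2 of 3 HESKOL livers. The value of HESKOL replicate 3 (-8.85) lay among the wild-type values. A1bg was tested only because all 3 treated HESKOL livers were above background. The fatty acyl-CoA thioesterase genes Acot4 (0.88, SE 0.47) and Acot3 (2.43, SE 1.38) had unadjusted p above 0.05. Between 9 and 11 of the 14 means were higher under the scalings tried, 14 without HESKOL replicate 2 and 7, with a median of -0.014, without HESKOL replicate 3.

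Apart from Cux2, the upstream factors of this pattern had an unadjusted p above 0.05. Stat5b, which carries the growth hormone signal, stood at 3.08, 3.29 and 3.47 in wild-type and 3.82, 3.83 and 3.59 in HESKOL liver (0.47, SE 0.23, unadjusted p = 0.0665, limma), without overlap. Bcl6, a repressor favoured in male liver, stood at 2.79, 2.12 and 4.89 against 1.50, 2.96 and 2.56 (-0.93, SE 0.68), with overlap. After dexamethasone the Bcl6 difference was -3.94 (SE 0.68, limma adjusted p = 0.0271), without overlap. It was the 1 gene called after treatment among 8 tested growth hormone signalling genes, where 1.14% of all genes were called. Bcl6 also lies within 10 Mb of the Hes1 probe. Socs2, a feedback inhibitor of the hormone, had a difference of 0.55 (SE 0.71). The transcripts that differ between the sexes by chromosome were alike: Xist was between -7.34 and -6.87 and Ddx3y between 0.77 and 1.49 over the 6 livers, and 0 of 5 such genes had an unadjusted p under 0.05, as the male label requires.

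**Figure D4:**
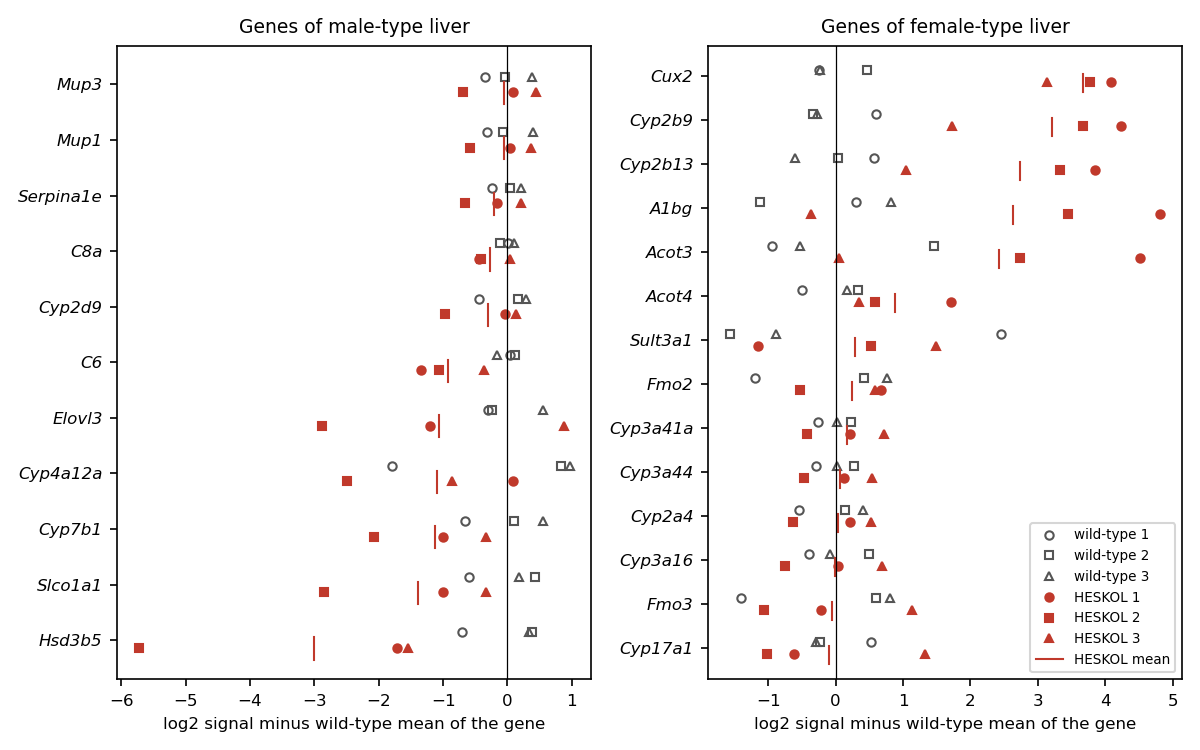
Tested genes of male-type (left, 11 genes) and female-type (right, 14 genes) mouse liver in the 6 untreated livers; the x axis is the log2 signal minus the wild-type mean of the gene, with open grey symbols for wild-type mice, filled red symbols for HESKOL mice and a red bar for the HESKOL mean. All 11 red bars of the left panel lie below 0, and HESKOL replicate 2 has the lowest value for Hsd3b5 and Slco1a1.

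Targets of the glucocorticoid receptor were compared because the mice had no adrenal glands. Of 26 tested targets 0 passed the threshold, and the median was -0.044. At an unadjusted p under 0.05, 3 had higher means (Igfbp1, Pdk4 and Mt1) and 1 a lower mean (Per1). Over all genes 1.08% were higher and 0.503% lower at that p. Pdk4, which shuts carbohydrate out of the mitochondrion, stood at -1.81, -1.63 and -1.41 in wild-type and 0.014, 0.63 and -0.56 in HESKOL liver (1.64, SE 0.56). Mt1, a metallothionein, stood at 5.57, 4.26 and 5.23 against 5.63, 6.09 and 6.82 (1.16, SE 0.41). Per1, a clock gene, stood at 0.83, 1.69 and 1.49 against -0.0022, -0.65 and 1.09 (-1.19, SE 0.42). Of 15 tested genes of corticosteroid handling 0 had an unadjusted p under 0.05, among them Hsd11b1, which regenerates active glucocorticoid (0.46, SE 0.23).

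Immediate early genes, which respond within minutes to many stimuli, had higher means for 18 of 23 tested members (median 0.37). Of all 18698 genes 10902 had higher means. On array medians the count was also 18 of 23, with a median of 0.28. Leaving out 1 array moved the median between 0.23 (without HESKOL replicate 2, 17 of 23 higher) and 0.39 (without wild-type replicate 1). Egr1 stood at -1.92, -0.45 and -1.39 in wild-type and 2.94, 3.01 and 0.13 in HESKOL liver (3.28, SE 1.08), the 1 member with an unadjusted p under 0.05. Among all genes 1.08% were higher at that p. Fos stood at -4.03, -4.56 and -4.71 against -1.12, -2.39 and -3.90 (1.96, SE 1.03). In both genes HESKOL replicate 3 was nearest to the wild-type livers. In 5 of the 23 genes the HESKOL livers lay above all wild-type livers, Ier3, Btg2 and Egr2 among them, where 4.15% of all genes did.

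Single genes of stress and inflammation had small p. Tnfaip2, induced by tumor necrosis factor, stood at 2.02, 1.30 and 1.14 against 2.80, 2.99 and 1.83 (1.06, SE 0.32), and Il1b, the cytokine, at -0.62, -1.77 and -1.23 against -0.23, -0.030 and -0.70 (0.89, SE 0.40). They were the 2 of 23 NF-kB and cytokine genes with an unadjusted p under 0.05. Trp53inp1 (1.16, SE 0.42) and the death-promoting gene Bbc3 (0.69, SE 0.29) were 2 of 21 at that p in the p53 and stress list. For both lists the share over all genes was 1.08% higher at that p. Macrophage markers had higher means in 14 of 15 (median 0.37), with 0 at an unadjusted p under 0.05, where 10902 of all 18698 genes had higher means. Marco, a scavenger receptor, stood at 6.27, 2.95 and 3.51 against 6.46, 5.86 and 4.72. B and plasma cell markers had higher means in 10 of 10 and class II and related antigen presentation genes in 13 of 13 (medians 0.36 and 0.18), again with 0 at an unadjusted p under 0.05. On array medians the 3 counts were 12 of 15, 9 of 10 and 11 of 13. Leaving out 1 array moved the B and plasma cell median between 0.18 (without HESKOL replicate 1, 8 of 10 higher) and 0.81 (without HESKOL replicate 3), with 7 of 10 higher without wild-type replicate 3. The class II median moved between 0.11 (without HESKOL replicate 2, 9 of 13 higher) and 0.30 (without HESKOL replicate 3). Their part in the differences of single genes was not tested.

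No gene of intermediary metabolism passed the test, as no gene of any kind did. The share of all genes at an unadjusted p under 0.05 was 1.58%. Over the lists of gluconeogenesis (21 genes tested), lipogenesis (23), lipid droplets and lipases (22), cholesterol synthesis (24), amino acid and urea metabolism (27), phase 2 and antioxidant genes (25) and oxidative phosphorylation (28), 0 genes had an unadjusted p under 0.05. Scd1, which desaturates fatty acids, stood at 7.48, 7.04 and 5.99 against 7.73, 7.89 and 7.79 (0.97, SE 0.47), without overlap. Elovl5 (0.84, SE 0.47) and Cth of cysteine synthesis (0.70, SE 0.36) also had groups without overlap. The HESKOL livers lay above all wild-type livers in 4 of 24 cholesterol synthesis genes and 2 of 23 lipogenesis genes. So they did in 2 of 25 phase 2 and antioxidant genes and 1 of 27 amino acid genes, and in 1 of the 27 they lay below. The count was 0 for gluconeogenesis, lipid droplets and oxidative phosphorylation. Of all genes 4.15% lay above, a share that moved with the scaling, and 2.2% below. Among fatty acid oxidation genes Cyp4a14, a PPAR alpha target, stood at 2.34, 4.28 and 3.45 against 7.0, 4.93 and 4.18 (2.01, SE 0.77), 1 of 25 at an unadjusted p under 0.05. Cyp1a2, a drug-metabolizing cytochrome, stood at 5.52, 5.88 and 5.19 against 5.21, 4.61 and 4.80 (-0.66, SE 0.27), with overlap. Igfbp2, which binds insulin-like growth factors, stood at 5.73, 6.72 and 5.98 against 7.91, 7.04 and 6.49 (1.00, SE 0.39). An unadjusted p under 0.05, which 1.58% of all genes had, was found for 3 of 31 cytochrome and xenobiotic genes (Cyp2b9, Cyp2b13 and Cyp1a2), 2 of 21 glycolysis and fuel switch genes (Pfkfb3 and Pdk4), 2 of 13 genes of the insulin-like growth factor system (Igfbp1 and Igfbp2), 1 of 23 bile acid genes (Slco1a1) and 1 of 10 metallothionein and zinc genes (Mt1). Of 20 clock genes only Per1 had an unadjusted p under 0.05, and of 14 endothelial markers only Tie1 (0.71). There were 0 such genes among 25 acute phase, 24 unfolded protein response, 17 heat shock, 29 interferon response, 18 apolipoprotein and 19 liver transcription factor genes, and 0 among 14 T and NK cell, 14 stellate cell, 9 cholangiocyte, 5 erythroid, 6 adipocyte and 5 skeletal muscle markers. Cell cycle genes had higher means in 27 of 30 (median 0.51) with 0 at an unadjusted p under 0.05, beside the array order given for Mki67. That median was 0.072 without HESKOL replicate 2, 1.38 without wild-type replicate 1 and 0.032 within slide 1.

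The livers taken after dexamethasone gave a comparison of the genotypes on arrays that share none with the untreated ones. There 213 genes passed (1.14%): 130 genes were higher (0.695% of those tested) and 83 lower (0.444%) in HESKOL liver (limma, adjusted p under 0.05). Of the 15 named genes with higher signal in untreated HESKOL liver 6 were among the higher ones, and of the 15 with lower signal 2 were among the lower ones, while 0 of the 30 were called in the opposite direction. In all, 12 and 14 of them had the same sign after treatment, where 54.6% of all genes did. Cux2, counted among the 6, and S100g, counted among the 12, entered the test only through HESKOL livers. The filter itself therefore favoured a higher sign for both, with and without treatment. Hao2 entered only through the untreated HESKOL livers. Of the 296 genes at an unadjusted p under 0.05, 218 had the same sign, with 26 called in it and 2 called against it. All treated HESKOL livers and treated wild-type replicate 3 were on slide 3, and treated wild-type replicates 1 and 2 were on slide 2. The treated genotype difference is therefore in large part also a difference between slides. The 2 comparisons share slide 2 and 1 estimate of the spread. The part of the slides in the treated differences and in the shared signs was not tested.

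Cux2 was bright in the treated HESKOL livers and near background in treated wild-type liver. The treated wild-type livers stood at -6.17, -8.61 and -7.14 and the treated HESKOL livers at 0.40, -0.057 and 1.09, a fitted difference of 7.79 (SE 0.54, limma adjusted p = 0.00027). With 1 of 3 treated wild-type arrays above background, Cux2 was at least 131-fold higher by the same bound. Lepr had a treated difference of 4.17 (SE 0.54, adjusted p = 0.00653), Cables1 2.25 (SE 0.30, adjusted p = 0.00866), Esr1 1.65 (SE 0.23, adjusted p = 0.0114), Nipal1 4.20 (SE 0.80, adjusted p = 0.0375) and Lratd2 1.14 (SE 0.23, adjusted p = 0.0471), by limma. Cdh15 had a treated difference of similar size, at -4.22, -3.64 and -4.02 in wild-type and -5.36, -5.25 and -5.53 in HESKOL liver (-1.42, SE 0.23, limma adjusted p = 0.0183). Serpina12 stood at -2.76, -2.81 and -2.83 against -5.69, -7.76 and -5.87 (-3.64, SE 0.45, limma adjusted p = 0.00581), with 2 of 3 treated HESKOL arrays above background and signal at least 9.90-fold lower. Hsd3b5, chosen by its size and not its p, was also lower after treatment (-5.39, SE 0.98, limma adjusted p = 0.0336), and so was Hsd3b4 (-4.87, SE 0.98, limma adjusted p = 0.0450).

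Other genes did not pass the test after treatment. Hao2 was above background in 1 of 3 treated wild-type and 0 of 3 treated HESKOL livers, so its treated difference could not be measured. Egr1 had a treated difference of -1.55 (SE 1.08), Cyp2b9 of -0.17 (SE 0.83) and Cyp2b13 of -0.20 (SE 0.95), none past the threshold. For Cyp2b9 the treated wild-type livers stood at 3.15, 6.28 and 5.55 and the treated HESKOL livers at 5.04, 5.66 and 3.78, so both groups reached the level of untreated HESKOL liver. Moxd1 (-1.66, SE 1.29) and Serpina4-ps1 (-0.69, SE 1.23) kept their sign with overlapping groups. After treatment the groups did not overlap in 3410 genes (18.2%), 1975 with higher (10.6%) and 1435 with lower (7.68%) HESKOL signal. Over all genes the difference between the untreated and treated genotype differences passed the threshold for 3 genes (0.016%), and 1242 genes (6.64%) had an unadjusted p under 0.05.

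**Figure D5:**
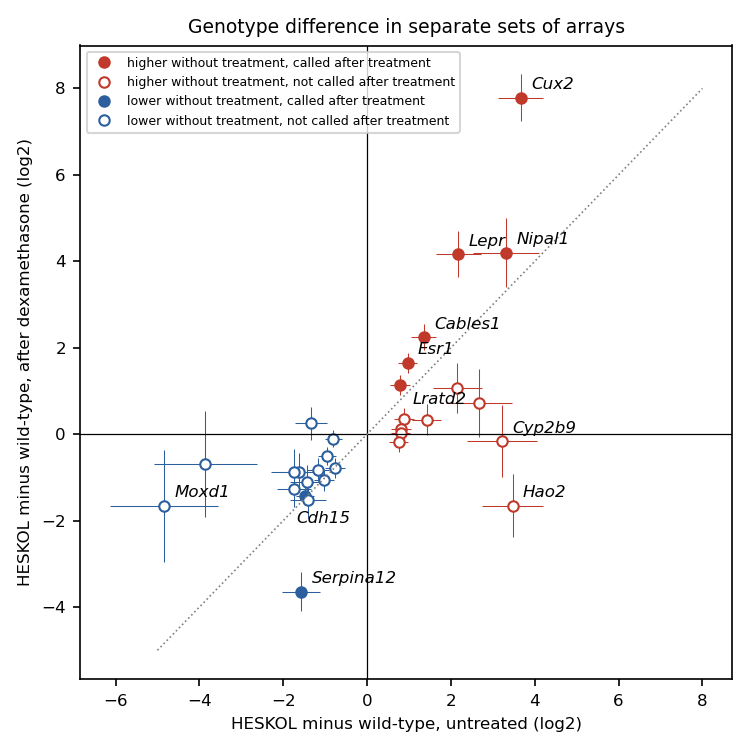
HESKOL minus wild-type signal (log2) without treatment (x axis) and after dexamethasone (y axis) for the 30 genes ranked by p without treatment, red where higher and blue where lower in untreated HESKOL liver; bars are standard errors of the limma fit, filled symbols passed an adjusted p of 0.05 after treatment, and the dotted line marks equal differences. Cux2 lies highest, at 3.66 and 7.79, against wild-type signal near background, and the treated position of Hao2 rests on signals that were mostly not above background.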

How the data were processed

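Each array held total RNA of 1 liver, 500 ng labelled with Cy3, per the labels' protocols. Values are array intensities that the authors obtained from the scans by Feature Extraction (Agilent, version 9.5.3.1), per the file headers (9.5 per the submitters' processing notes), background already removed, on a design of the mm7 build. The deposited series table holds the same intensity values, unscaled (ratio to the array files 1).

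Log2 intensity minus each array's log2 75th percentile over non-control spots was used, without outlier spots, and spots of a probe were averaged. A gene name was found for all but 6571 of 41174 probes. A gene took its brightest probe by mean, and it was tested where that probe exceeded background in each of the 3 livers of any group (18698 of 27768). Of the genes named with a difference 27 had several tested probes, and 0 of these had a probe of opposite sign. The 4 group means were estimated jointly from the 12 arrays by limma 3.58.1 in R 4.3.3 (8 residual and 3.12 prior degrees of freedom), with Benjamini-Hochberg adjustment at 0.05. The fit was tested on simulated data. It recovered 7 of 50 genes changed by 1 log2 unit and 37 of 50 changed by 2. Errors were drawn independently, without the shifts between arrays seen in these livers. The number of arrays limits the precision: the median SE was 0.31.

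Named genes were, per direction, the 15 of smallest p and the 10 largest differences above background, both without overlap of groups and without unnamed gene models, Hes1, and up to 6 members of each list by p. In the Hes and Hey list, and for Fam43a, Notch and sex-biased genes further members were chosen after their values were seen. The 31 pathway and 12 cell type lists share some members. The comparison, the members and the lists were chosen with earlier results of these data known.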

Additional observations from a re-analysis of the deposited data

Results flagged for a closer look

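The genotype difference itself differed between untreated and treated liver in 3 genes (limma interaction, adjusted p under 0.05). For Il1b the untreated minus the treated difference was 4.57 (SE 0.57, adjusted p = 0.0342), from a difference of 0.89 without and -3.68 with dexamethasone. For Phf11d it was -2.83 (SE 0.29, adjusted p = 0.0192), from -0.11 and 2.72. For Sesn1, a stress-induced regulator of growth signaling, it was -2.63 (SE 0.30, adjusted p = 0.0242), from 0.16 and 2.80. In these 3 genes the larger part of the difference lay in the treated livers.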

How the results depend on the processing

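In the untreated comparison 0 genes passed an adjusted p of 0.05 (limma) under every alternative run, and the Hes1 difference stayed negative in all of them. The count at an unadjusted p under 0.05 (296) was 586 without the filter on dim probes, 186 with genes above background on all 6 untreated arrays, 502 with these 6 arrays alone and 23 against a minimum log2 change of 1. Leaving out 1 array at a time gave 185 (without HESKOL replicate 2) to 485 (without HESKOL replicate 3) genes, and 1188 to 3847 genes without overlap (the latter without wild-type replicate 3), where groups of 2 overlap less often by construction. Leaving out wild-type replicate 1 and HESKOL replicate 2 together, an alternative chosen after seeing the data, gave 144 and 3942. A covariate of neutrophil signal, also chosen after seeing the data, gave 346. The replicate block gave 355 genes and Hes1 at -1.12. Deviations of same-numbered livers correlated at -0.35, -0.14 and 0.62, and 2 of 6 arrays were nearest to the array of their own number. With 3 livers in each group these values cannot decide whether the numbers pair the mice. Slide as a fixed block gave 248 genes and as a random block 345. Of the single genes whose differences are given, Zg16 and Phf11d changed sign. Zg16 ranged from -1.14 without wild-type replicate 2 to 0.045 without wild-type replicate 3, and Phf11d from -0.22 without wild-type replicate 3 to 0.011 without HESKOL replicate 3, with 0.011 also under slide as a fixed block. Genes dim in 1 genotype, such as Hao2, S100g and Cux2, have bounds in place of folds.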
